A study of Mus musculus with 9 samples.

Results

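The comparison is that of the methionine- and choline-deficient diet (MCD) with the same diet supplied with both nutrients (MCS), and its members are the 6 liver libraries, of 9 in the series, that the labels assign to these groups. The MCD group comprised 3 livers and the MCS group 3 livers. All were from wild-type (WT) male C57BL/6 mice, bought at 9 weeks of age and given 1 week of adaptive feeding before 4 weeks on the assigned diet. Both received the vehicle, sodium carboxymethylcellulose (CMC-Na) at 0.5%, by gavage, so that diet is the only labelled difference between them. The other 3 livers, from MCD-fed mice given Gynostemma pentaphyllum polysaccharides at the high dose (HGPP), entered the expression filter and 1 alternative fit and were compared with neither group. Each library was RNA from the liver of 1 mouse, and errors therefore reflect differences among animals. The extraction label speaks of cells stored in TRIzol, whereas the tissue label and the study's methods give liver.

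Methionine is the precursor of S-adenosylmethionine, the methyl donor of the liver, and choline is needed for phosphatidylcholine, the phospholipid that coats very low-density lipoprotein (VLDL). Rodents deprived of both nutrients export less triglyceride from the liver and develop steatosis, inflammation and fibrosis, and the diet is widely used as a model of steatohepatitis. The model differs from the human disease in that the mice lose weight and remain sensitive to insulin.

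Expression was given as FPKM, which counts sequenced fragments relative to gene length and sequencing depth. The fragments behind the values, recovered from their steps, numbered 11492660, 16702367 and 13115713 in MCD livers, against 18902842, 15624330 and 14964992 in MCS livers. Hepatocyte markers were abundant in every liver. Alb, which encodes albumin, had 42491, 22360.0 and 17604 FPKM in MCD livers, against 57774, 44569.6 and 46250.1 in MCS livers. The transcription factor Hnf4a had 97.4, 74.6 and 43.4 FPKM in MCD livers, against 110.0, 89.4 and 122 in MCS livers. Genes were tested where 3 or more of the 9 libraries reached 0.1 FPKM. Of these 13817 genes, limma on log2(FPKM + 0.1) called 3060 (22.1%) at an adjusted p under 0.05, 2707 (19.6%) higher and 353 (2.55%) lower in the MCD group. A gene is said below to have risen or fallen only where it was among these. Of all 13817 tested genes 5263 lay higher and 702 lower in the MCD group without overlap between the groups. Of the called genes, 2661 of the 2707 higher and 346 of the 353 lower did so. A lack of overlap thus adds little to a call. Log2 fold changes are MCD minus MCS on the log2(FPKM + 0.1) scale, which understates the change of genes near 0.1 FPKM. Those marked as scaled come from the fit after the scaling described below. With the thresholds of the study, a log2 fold change beyond 1 and an unadjusted p under 0.05, the same fit gave 2940 genes (21.3%). Of these, 2671 were higher and 269 lower. With DESeq at these thresholds the study reported fewer genes, with a smaller excess of upregulated over downregulated ones.

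The median log2 fold change over all tested genes was 0.40, so a gene near 0 had fallen behind most genes. Median-of-ratios scaling, which sets the typical gene of each liver to the same level, brought that median to 0.02. After scaling, limma called 2252 genes (16.3%), 1230 (8.90%) higher and 1022 (7.40%) lower. All 353 genes that fell on the FPKM scale fell after scaling too, as did 669 further genes, whereas 1477 genes were called higher on the FPKM scale only. No gene was called in opposite directions. Counts after scaling are therefore given beside those on the FPKM scale, with the counts without single livers or with quantile scaling where these moved most. Medians of gene groups are to be read against 0.40. Without MCD1, MCD2 and MCD3 the number of all genes called higher was 3238, 1894 and 1179. Without MCS1, MCS2 and MCS3 it was 1358, 1587 and 1130. The number called lower was 391, 423 and 175, then 199, 199 and 118, in the same order. Quantile scaling gave 673 higher and 597 lower. List counts under these settings are to be read against these numbers. Albumin took 9.72%, 5.67% and 3.84% of the summed FPKM in the MCD livers, against 13.7%, 10.5% and 11.6% in the MCS livers (p = 0.1 in a two-sided exact permutation test, where 3 against 3 allow no smaller p).

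**Figure D1:**
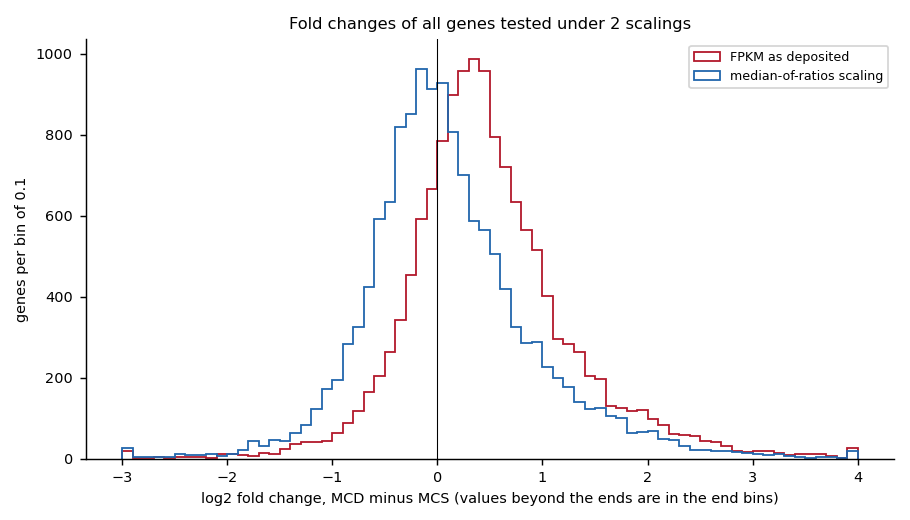
Number of genes (vertical axis) by log2 fold change, MCD minus MCS (horizontal axis), for 13817 tested genes on the FPKM scale and after median-of-ratios scaling. The distribution on the FPKM scale is centred at 0.40 and after scaling at 0.02.

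Across the gene groups examined, the expressions of lipid-associated and monocyte-derived macrophage, neutrophil, dendritic cell, cytoskeletal and matrix genes rose most often in the MCD group, followed by those of chemokine, pattern receptor, immediate early and cell cycle genes. The groups with the most frequent falls were male-biased genes, bile acid synthesis, drug-metabolizing enzymes, cholesterol synthesis and clotting factors. Of 21 tested lipid-associated macrophage genes 18 rose, and of 22 tested male-biased genes 14 fell. The lists share members, among them Mmp12, Spp1, Fn1, Itgax, Cd68 and Derl3, so their counts are not independent of each other. Some lists had a share called higher of 16.7% to 23.1%, near the 19.6% over all genes. They were the interferon-stimulated, glucose, complement, acute phase, hepatokine, iron, female-biased, growth hormone, PCR reference and mitochondrial DNA genes. The counts higher in these lists are thus no result about their members.

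**Figure D2:**
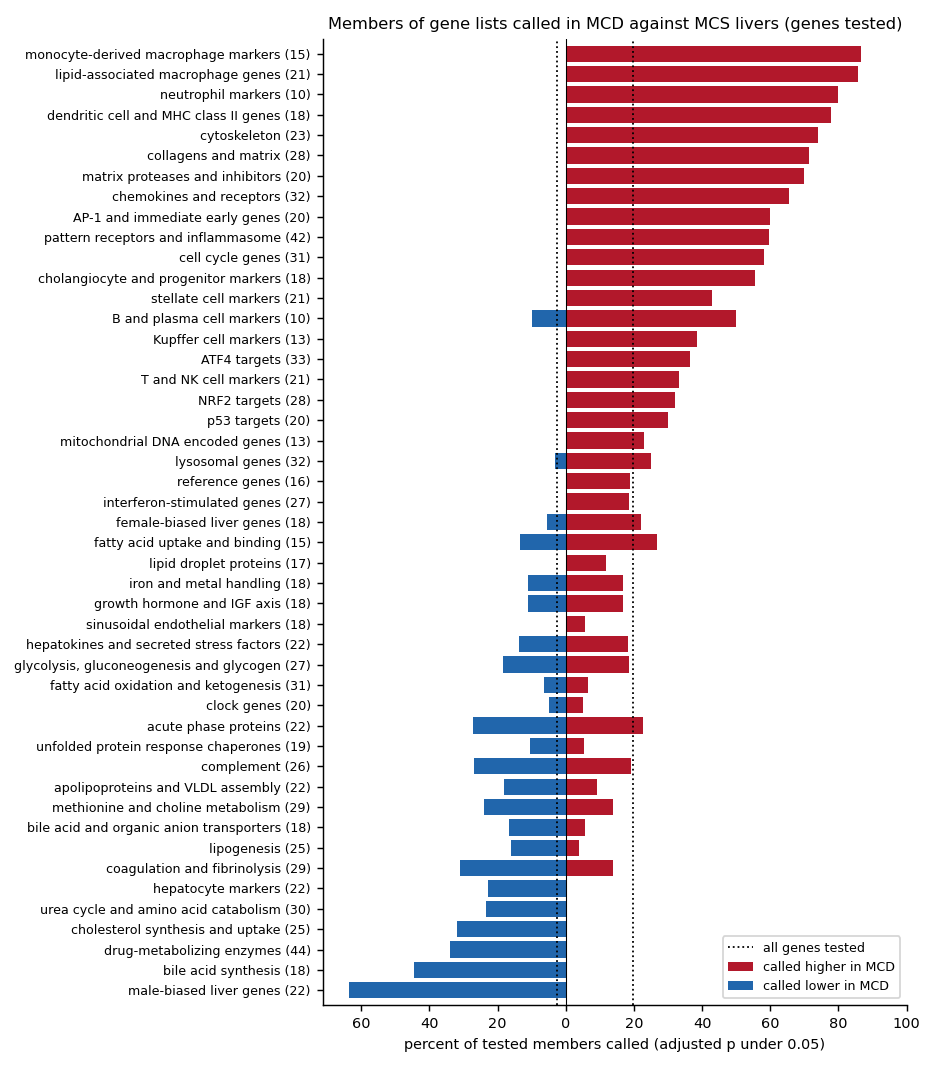
Percent of tested members called higher (bars to the right) and lower (bars to the left) in the MCD group, for gene groups with 10 or more tested members, without the genes that the study names; dotted lines mark the shares over all genes, 19.6% higher and 2.55% lower. Monocyte-derived and lipid-associated macrophage lists reach furthest to the right, with 13 of 15 and 18 of 21 members higher, and male-biased genes reach furthest to the left, with 14 of 22 lower.

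Lipid-associated macrophages are scavenging cells that gather around fat-laden or dying cells and carry a lysosomal and lipid-handling programme. Gpnmb, a membrane glycoprotein of such cells, had 12.1, 125 and 52.0 FPKM in MCD livers, against 0.122, 0.246 and 0.0923 in MCS livers. The 3 MCD livers lay far above all MCS livers, with MCD1 lowest and MCD2 highest (log2 fold change 7.45, standard error 0.67, limma adjusted p = 0.000441). The gene lies on chromosome 6 of GRCm38 from 49036546 to 49070929. Mmp12, the macrophage elastase, had 10.99, 69.2 and 41.0 FPKM in MCD livers, against 0.0731, 0.195 and 0.0923 in MCS livers (log2 fold change 7.21, standard error 0.56, limma adjusted p = 0.000256). Trem2, a lipid-sensing receptor, had 3.32, 16.6 and 12.9 FPKM in MCD livers, against 0.118, 0.181 and 0.135 in MCS livers (log2 fold change 5.22, standard error 0.51, limma adjusted p = 0.000645). Lgals3, which encodes the galactoside-binding protein galectin-3, had 65.7, 248 and 229 FPKM in MCD livers, against 5.61, 1.79 and 1.58 in MCS livers (log2 fold change 5.89, standard error 0.55, limma adjusted p = 0.000571). In none of these did the groups overlap, and in each MCD1 was the lowest of the MCD livers. The tetraspanin Cd63, which sits in late endosomes, rose to 22.9, 68.0 and 33.6 FPKM in MCD livers, against 1.93, 1.48 and 1.58 in MCS livers (4.42 on the log2 scale). Of this list, 18 of 21 tested members were called higher and 0 lower, with a median log2 fold change of 3.39, and after scaling the calls were 17 higher and 0 lower. Leaving out 1 liver at a time gave 16 to 19 calls. Other members that rose were Capg (4.51), Fabp5 (4.23), Lpl (4.17), Itgax (4.16), Tyrobp (3.54), Ctsk (3.25) and Spp1 (2.07), with log2 fold changes in brackets, of which Spp1 was not called after scaling. Their summed level was 737, 2486 and 1647 FPKM in MCD livers, against 563, 472 and 519.5 in MCS livers. Liver here is bulk tissue, in which more or fewer cells of a type and more or less RNA per cell cannot be told apart.

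Markers of recruited monocytes and of resident Kupffer cells differed in how clearly they separated the diets. Of the monocyte-derived macrophage markers, 13 of 15 tested members were called higher and 0 lower (median 2.68), with 12 higher and 1 lower after scaling. Ccr2, the receptor that draws monocytes out of the marrow, had 1.78, 4.38 and 5.48 FPKM in MCD livers, against 0.571, 0.540 and 0.445 in MCS livers (log2 fold change 2.55, standard error 0.40, limma adjusted p = 0.00325). Itgam, the integrin CD11b, had 1.33, 2.96 and 3.25 FPKM in MCD livers, against 0.0632, 0.115 and 0.133 in MCS livers. Lyz2, lysozyme of myeloid cells, had 109, 645 and 419 FPKM in MCD livers, against 58.0, 19.5 and 17.5 in MCS livers, among the 10 largest increases in mean FPKM. The exception in direction was Fn1, fibronectin, which hepatocytes also make and which had 59.6, 68.0 and 67.5 FPKM in MCD livers, against 76.1, 97.5 and 109 in MCS livers (log2 fold change -0.52, limma adjusted p = 0.0903). Of the Kupffer cell markers, 5 of 13 tested members were called higher and 0 lower (median 1.32), with 2 higher and 0 lower after scaling. The Kupffer-specific lectin Clec4f had 26.0, 67.9 and 59.8 FPKM in MCD livers, against 47.6, 17.3 and 17.6 in MCS livers, and the groups overlapped (log2 fold change 0.95, standard error 0.44, limma adjusted p = 0.142). Timd4, a phosphatidylserine receptor of long-resident Kupffer cells, had 2.32, 2.15 and 2.35 FPKM in MCD livers, against 3.24, 0.530 and 0.707 in MCS livers (log2 fold change 0.99, standard error 0.53, limma adjusted p = 0.195). The scavenger receptor Marco had 25.7, 53.5 and 41.2 FPKM in MCD livers, against 25.1, 2.93 and 2.92 in MCS livers, so that MCS1 stood close to MCD1. MCS1 was the highest MCS liver for each of these 3 genes. Over the Kupffer list the median difference from the MCS mean was 0.26, 2.19 and 1.22 on the log2 scale in the MCD livers, against 0.90 in MCS1, -0.59 in MCS2 and -0.29 in MCS3. The number of Kupffer markers called higher was 1 without MCD3 or MCS3, 2 without MCD2 or MCS2, 9 without MCD1 and 0 with quantile scaling. Csf1r, the receptor for the macrophage growth factor, rose (2.32), but it is not particular to Kupffer cells. Spic (2.13), which controls red pulp-type iron-recycling macrophages, rose as well. The Kupffer list also shares Cdh5 with the sinusoidal endothelial markers.

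Among neutrophil markers 8 of 10 tested members were called higher and 0 lower (median 2.42), with 7 higher and 0 lower after scaling. S100a8, a subunit of the antimicrobial protein calprotectin, had 9.28, 18.98 and 27.0 FPKM in MCD livers, against 1.45, 1.38 and 1.35 in MCS livers (log2 fold change 3.50, standard error 0.35, limma adjusted p = 0.000645). Csf3r, the receptor for granulocyte colony-stimulating factor, had 7.72, 7.56 and 13.9 FPKM in MCD livers, against 1.04, 1.33 and 0.833 in MCS livers. MCD3 was the highest liver for both, unlike Gpnmb, Mmp12, Trem2 and Lgals3, for which MCD2 was highest. The neutrophil markers Ly6g, Ltf, Mpo and Elane did not pass the expression filter. In the lymphocyte lists levels were low. Of B and plasma cell markers 5 of 10 tested members were called higher and 1 lower, and 4 higher and 1 lower after scaling. The B cell count was 3 without MCS3 and 0 with quantile scaling. Cd79b, a signalling chain of the B cell receptor, had 1.64, 2.55 and 7.67 FPKM in MCD livers, against 0.850, 0.447 and 0.327 in MCS livers. The member that fell was Derl3, an endoplasmic reticulum factor of plasma cells and other secretory cells, at 1.66, 1.41 and 0.842 FPKM in MCD livers, against 5.63, 5.97 and 4.29 in MCS livers (log2 fold change -1.98, standard error 0.30, limma adjusted p = 0.00296). Of T and NK cell markers 7 of 21 tested members were called higher and 0 lower, of which 2 remained called after scaling, Zap70 (1.97), a kinase of the T cell receptor, and Klrd1 (2.84), an NK cell receptor. The T and NK cell count was 2 without MCD3 or MCS2, 3 without MCS3, 4 without MCD2, 11 without MCD1 and 1 with quantile scaling. The T cell receptor chain Cd3e, at 0.235, 0.161 and 0.505 FPKM in MCD livers, against 0.0778, 0.0784 and 0.0655 in MCS livers, did not pass (limma adjusted p = 0.0695).

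Of dendritic cell and MHC class II genes 14 of 18 tested members were called higher and 0 lower (median 1.92), with 6 higher and 0 lower after scaling. H2-Ab1, a chain of the MHC class II molecule that presents peptides to T cells, had 21.3, 63.2 and 89.1 FPKM in MCD livers, against 34.1, 8.35 and 7.16 in MCS livers (log2 fold change 1.95, standard error 0.62, limma adjusted p = 0.0464). The groups overlapped, because MCS1 exceeded MCD1. The same order held for Cd74, the invariant chain, at 49.2, 175 and 220.2 FPKM in MCD livers, against 83.5, 23.9 and 16.9 in MCS livers, which missed the threshold (limma adjusted p = 0.0513). Genes without that overlap were Siglech, a marker of plasmacytoid dendritic cells (2.14), Ccr7, the homing receptor of mature dendritic cells (2.02), and Ciita, the transcriptional switch of MHC class II (2.04), and all 3 held after scaling. The number called higher was 1 without MCD3, 3 without MCS3, 6 without MCD2, 8 without MCS2 and 1 with quantile scaling. Of sinusoidal endothelial markers 1 of 18 tested members was called higher and 0 lower, as after scaling, and 5 without MCD1. The member called with all livers was the scavenger receptor Stab1 (9.25, 9.76 and 15.3 FPKM in MCD livers, against 3.81, 5.15 and 3.81 in MCS livers), whereas its relative Stab2 had 5.65, 6.90 and 9.66 FPKM in MCD livers, against 5.99, 8.43 and 7.36 in MCS livers (log2 fold change 0.01, 95% interval -0.56 to 0.58).

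Pattern receptors detect microbial and damage signals, and inflammasomes are the complexes that cut interleukin precursors through caspase-1. Of these genes 25 of 42 tested members were called higher and 0 lower (median 1.56), with 21 higher and 0 lower after scaling, and the number higher was 16 without MCD3 or MCS3 and 11 with quantile scaling. Tlr2, the receptor for bacterial lipoproteins, had 2.19, 4.51 and 4.53 FPKM in MCD livers, against 1.11, 0.425 and 0.820 in MCS livers (log2 fold change 2.13, standard error 0.39, limma adjusted p = 0.00620). Nlrp3, an inflammasome sensor, had 0.408, 1.30 and 1.32 FPKM in MCD livers, against 0.183, 0.0947 and 0.247 in MCS livers (log2 fold change 1.91, standard error 0.45, limma adjusted p = 0.0167). Its levels were low and the groups did not overlap. Among the partners of Tlr2, Tlr1 (3.19) and Tlr6 (2.06) rose, and the endotoxin co-receptor Cd14 rose by 2.44 on the log2 scale. Of the inflammasome parts, the adaptor Pycard (2.04), Casp1 (1.96), Casp4 (1.70) and the DNA sensor Aim2 (2.62) rose. Il1b, the product cytokine, had 2.97, 9.39 and 9.28 FPKM in MCD livers, against 1.53, 0.705 and 0.911 in MCS livers (log2 fold change 2.56, standard error 0.45, limma adjusted p = 0.00507). Il18, at 9.03, 13.01 and 19.01 FPKM in MCD livers, against 9.44, 9.001 and 6.74 in MCS livers, overlapped between groups (limma adjusted p = 0.124), as did the pore-forming Gsdmd at 14.6, 16.8 and 22.7 FPKM in MCD livers, against 14.6, 12.3 and 15.3 in MCS livers (limma adjusted p = 0.295). All 26 tested genes that the study names were called higher, and 20 were after scaling, 14 without MCD3, 15 without MCS3, 17 without MCD2 and 9 with quantile scaling. The study selected those genes on these same samples, so this count is not independent evidence of their direction.

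Chemokines direct the migration of leukocytes. Of chemokines and their receptors 21 of 32 tested members were called higher and 0 lower (median 1.98) and 18 higher and 1 lower after scaling. The chemokine count was 10 with quantile scaling. Ccl3, a chemoattractant of monocytes and lymphocytes, had 5.34, 6.88 and 10.6 FPKM in MCD livers, against 0.345, 0.167 and 0.0872 in MCS livers (log2 fold change 4.72, standard error 0.38, limma adjusted p = 0.000256). Ccl2, the ligand of Ccr2, had 6.27, 9.58 and 8.51 FPKM in MCD livers, against 1.16, 0.731 and 1.88 in MCS livers (log2 fold change 2.67, standard error 0.34, limma adjusted p = 0.00165). For both, every MCD liver was above every MCS liver. Cxcr4, the receptor for the homing chemokine Cxcl12, had 3.22, 4.01 and 3.84 FPKM in MCD livers, against 0.234, 0.248 and 0.111 in MCS livers. Cxcl12 itself had 31.3, 39.9 and 30.2 FPKM in MCD livers, against 38.7, 45.2 and 46.8 in MCS livers. This ligand was called lower only after scaling (scaled log2 fold change -0.79). The neutrophil attractant Cxcl2 rose (3.38), and Cxcl1 at 30.1, 13.9 and 8.91 FPKM in MCD livers, against 2.82, 9.39 and 7.63 in MCS livers did not pass. The interferon-induced ligands Cxcl9 (-0.49) and Cxcl10 (0.59) overlapped between groups, and of interferon-stimulated genes 5 of 27 tested members were called higher and 0 lower (median 0.11), with 0 higher and 3 lower after scaling. The interferon count was 0 without MCD3 or MCS1, 1 without MCS3, 2 without MCD2, 3 without MCS2, 8 without MCD1 and 0 with quantile scaling. Ifit1, an antiviral RNA-binding protein, had 3.44, 3.43 and 4.51 FPKM in MCD livers, against 3.76, 8.60 and 10.1 in MCS livers. Of lysosomal genes 8 of 32 tested members were called higher and 1 lower, with 6 higher and 2 lower after scaling, so that the share higher (25.0%) was near that over all genes. The lysosomal count was 5 without MCD3 and 16 without MCD1. Ctss, a cathepsin of antigen-presenting cells, had 43.2, 326 and 219.6 FPKM in MCD livers, against 32.5, 10.7 and 9.45 in MCS livers (log2 fold change 3.28, standard error 0.68, limma adjusted p = 0.00969), whereas the broadly expressed membrane protein Lamp2 fell to 29.4, 41.9 and 31.4 FPKM in MCD livers, against 48.7, 53.2 and 63.5 in MCS livers.

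**Figure D3:**
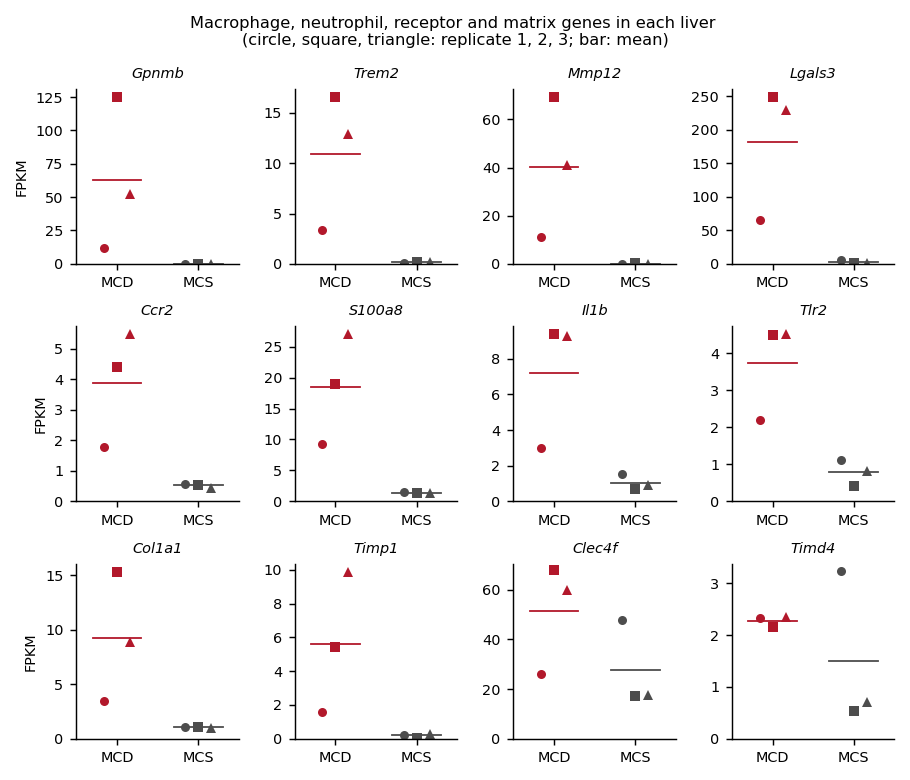
FPKM (vertical axes, linear from 0) of 12 immune and matrix genes in each MCD liver (left) and MCS liver (right), 1 point for each liver, shaped by replicate, and a line at the group mean. MCD points lie above all MCS points for Gpnmb, Trem2, Mmp12, Lgals3, Ccr2, S100a8, Il1b, Tlr2, Col1a1 and Timp1, while the groups overlap for Clec4f and Timd4.

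Fibrosis is the deposition of collagen-rich matrix by activated mesenchymal cells. Of collagens and matrix genes 20 of 28 tested members were called higher and 0 lower (median 1.47), and 12 higher and 1 lower after scaling. The matrix count was 9 without MCS1, 10 without MCD3, 12 without MCD2 or MCS3 and 5 with quantile scaling. Col1a1, a chain of type I collagen, had 3.45, 15.3 and 8.91 FPKM in MCD livers, against 1.05, 1.12 and 0.957 in MCS livers (log2 fold change 2.79, standard error 0.45, limma adjusted p = 0.00369). Col3a1, the chain of type III collagen, had 5.21, 26.4 and 14.6 FPKM in MCD livers, against 1.47, 1.91 and 1.82 in MCS livers (log2 fold change 2.80, standard error 0.48, limma adjusted p = 0.00440). MCD2 was the highest and MCD1 the lowest MCD liver for both. The crosslinking enzymes Lox (1.86), Loxl1 (1.72) and Loxl2 (1.93) rose and held after scaling. Of matrix proteases and their inhibitors 14 of 20 tested members were called higher and 0 lower (median 1.52), with 8 higher and 0 lower after scaling. The protease count was 7 without MCD3 or MCS1, 8 without MCD2 or MCS3, 9 without MCS2 and 6 with quantile scaling. Timp1, an inhibitor of matrix metalloproteinases, had 1.57, 5.46 and 9.87 FPKM in MCD livers, against 0.238, 0.0721 and 0.301 in MCS livers (log2 fold change 3.98, standard error 0.59, limma adjusted p = 0.00271). Mmp13, a collagenase, had 0.326, 3.99 and 1.83 FPKM in MCD livers, against 0.0594, 0.0718 and 0.275 in MCS livers, and Mmp14, a membrane-bound protease, had 10.1, 13.2 and 7.59 FPKM in MCD livers, against 6.34, 5.83 and 7.94 in MCS livers, with overlap for Mmp14. Hepatic stellate cells are the vitamin A-storing cells that turn into the main matrix producers of the injured liver. Of their markers 9 of 21 tested members were called higher and 0 lower (median 0.87), with 5 higher and 0 lower after scaling. The stellate cell count was 2 without MCD3, 3 without MCS3, 4 without MCS1, 15 without MCD1 and 2 with quantile scaling. Pdgfrb, a growth factor receptor of these cells, had 3.02, 6.19 and 5.75 FPKM in MCD livers, against 1.14, 1.79 and 1.96 in MCS livers (log2 fold change 1.52, standard error 0.33, limma adjusted p = 0.0120). Tgfb1 (1.90), which other cells also make, rose as well. Acta2, the smooth muscle actin of activated stellate cells and of vessel walls, had 13.5, 7.33 and 15.1 FPKM in MCD livers, against 5.20, 10.6 and 3.65 in MCS livers and overlapped (log2 fold change 0.95, standard error 0.39, limma adjusted p = 0.105). Lrat, which esterifies retinol, had 4.21, 13.6 and 7.64 FPKM in MCD livers, against 3.07, 4.43 and 5.11 in MCS livers (limma adjusted p = 0.127). The order of the MCD livers for both collagens was that of Gpnmb, Mmp12, Trem2 and Lgals3, and the part of macrophages in the matrix result was not tested.

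Of cholangiocyte and progenitor markers 10 of 18 tested members were called higher and 0 lower (median 1.31), with 5 higher and 0 lower after scaling. The duct marker count was 3 without MCS1, 5 without MCD2 or MCD3, 6 without MCS2 and 4 with quantile scaling. The members called included keratins that hepatocytes also express, Krt8 at 194, 434 and 189 FPKM in MCD livers, against 92.6, 86.1 and 104 in MCS livers and Krt18 at 267, 425 and 298 FPKM in MCD livers, against 129, 108 and 108 in MCS livers (log2 fold change 1.49, standard error 0.23, limma adjusted p = 0.00305). Sox9, a factor of bile duct cells and of reactive hepatocytes, had 2.61, 2.69 and 3.34 FPKM in MCD livers, against 0.934, 1.08 and 1.65 in MCS livers. It was not called after scaling (scaled log2 fold change 0.80). The defining duct markers Krt19, at 0.844, 2.13 and 0.863 FPKM in MCD livers, against 0.542, 0.587 and 1.08 in MCS livers, Krt7 and Epcam did not pass (limma adjusted p = 0.265, 0.194 and 0.612). Ly6d, a small surface protein, rose to 68.1, 290.1 and 44.1 FPKM in MCD livers, against 2.42, 1.98 and 3.77 in MCS livers (log2 fold change 5.13, standard error 0.57, limma adjusted p = 0.00105).

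Most cell cycle genes were low in all livers, and they rose in 18 of 31 tested members, with 0 lower (median 1.43), and with 11 higher and 0 lower after scaling. The cell cycle count was 8 without MCS3, 10 without MCD2, MCD3 or MCS1, 11 without MCS2 and 5 with quantile scaling. Mki67, the proliferation antigen, had 0.951, 1.40 and 1.10 FPKM in MCD livers, against 0.158, 0.204 and 0.153 in MCS livers (log2 fold change 2.19, standard error 0.31, limma adjusted p = 0.00234). Cdk1, the kinase that starts mitosis, had 0.635, 1.91 and 0.711 FPKM in MCD livers, against 0.139, 0.0778 and 0.149 in MCS livers. The replication clamp Pcna had 13.6, 30.9 and 15.4 FPKM in MCD livers, against 15.4, 13.3 and 13.8 in MCS livers and overlapped, and Ccnd1, a cyclin of the growth phase, had 5.80, 18.5 and 3.93 FPKM in MCD livers, against 3.94, 1.06 and 3.80 in MCS livers (limma adjusted p = 0.0883). Which cells carried the transcripts was not tested. Of AP-1 and immediate early genes 12 of 20 tested members were called higher and 0 lower (median 1.41), with 10 higher and 0 lower after scaling. Myc, a growth-promoting factor, had 16.2, 27.4 and 22.3 FPKM in MCD livers, against 6.70, 1.201 and 1.57 in MCS livers (log2 fold change 3.14, standard error 0.52, limma adjusted p = 0.00430), and Jun had 15.7, 23.2 and 18.96 FPKM in MCD livers, against 5.56, 6.30 and 4.99 in MCS livers (log2 fold change 1.75, standard error 0.22, limma adjusted p = 0.00167). Egr1, at 17.5, 4.65 and 3.23 FPKM in MCD livers, against 2.21, 5.95 and 3.40 in MCS livers, overlapped. Of p53 targets 6 of 20 tested members were called higher and 0 lower, with 4 higher and 0 lower after scaling. The growth arrest gene Gadd45g had 145, 122 and 165 FPKM in MCD livers, against 46.5, 12.99 and 20.6 in MCS livers (log2 fold change 2.62, standard error 0.39, limma adjusted p = 0.00261), the death effector Bax rose (1.46), and the cell cycle inhibitor Cdkn1a, at 3.23, 9.57 and 3.03 FPKM in MCD livers, against 0.476, 1.31 and 3.39 in MCS livers, did not pass (limma adjusted p = 0.0703). Cytoskeletal genes rose in 17 of 23 (11 higher and 0 lower after scaling). The cytoskeletal count was 10 without MCS1 or MCS3 and 11 with quantile scaling. S100a11, a calcium-binding partner of annexins, had 105, 187 and 107 FPKM in MCD livers, against 15.1, 15.8 and 13.3 in MCS livers (log2 fold change 3.12, standard error 0.25, limma adjusted p = 0.000256). Actb, beta-actin, had 389, 481 and 424 FPKM in MCD livers, against 148, 189 and 158 in MCS livers (log2 fold change 1.39, standard error 0.20, limma adjusted p = 0.00261).

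ATF4 is the transcription factor that cells translate when amino acids run short, and its targets make, import and charge amino acids. Of ATF4 targets 12 of 33 tested members were called higher and 0 lower (median 0.92), with 9 higher and 0 lower after scaling and 9 to 15 higher when 1 liver was left out. Nupr1, a stress-induced nuclear protein, had 20.1, 44.2 and 32.5 FPKM in MCD livers, against 1.54, 2.62 and 1.75 in MCS livers (log2 fold change 3.93, standard error 0.32, limma adjusted p = 0.000256). Atf3, a partner factor, had 10.8, 26.1 and 18.02 FPKM in MCD livers, against 1.203, 1.52 and 3.41 in MCS livers (log2 fold change 3.15, standard error 0.41, limma adjusted p = 0.00180). Asns, asparagine synthetase, had 8.62, 14.4 and 5.97 FPKM in MCD livers, against 2.22, 1.71 and 1.17 in MCS livers (log2 fold change 2.39, standard error 0.35, limma adjusted p = 0.00261). Slc7a11, the cystine importer that feeds glutathione synthesis, had 0.219, 0.877 and 0.624 FPKM in MCD livers, against 0, 0.00919 and 0.0240 in MCS livers (log2 fold change 2.46, standard error 0.45, limma adjusted p = 0.00608). In all 4 the groups stood apart. Atf4 itself had 79.0, 56.4 and 60.5 FPKM in MCD livers, against 34.0, 43.0 and 41.4 in MCS livers. It was not called after scaling (scaled log2 fold change 0.29). The serine and proline synthesis enzymes Psat1 (2.31) and Aldh18a1 (2.33) and the inhibitory pseudokinase Trib3 (1.56) rose. The secreted targets did not pass. Fgf21, a fasting and stress hormone, had 93.9, 35.3 and 18.3 FPKM in MCD livers, against 17.1, 21.3 and 21.4 in MCS livers, so that MCD1 was highest while MCD3 lay within the MCS range (limma adjusted p = 0.150). Gdf15 had 15.5, 18.04 and 16.1 FPKM in MCD livers, against 3.31, 16.6 and 9.06 in MCS livers (limma adjusted p = 0.123). Chac1, which degrades glutathione, had 1.12, 2.19 and 0.978 FPKM in MCD livers, against 2.65, 1.06 and 3.22 in MCS livers, unlike most of its group (log2 fold change -0.60).

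The promoters of the 4 target genes are shown because the bases that ATF4 binds together with C/EBP partners can be read in them. Each is the stretch of 150 bases before the start of the gene, on the strand of the gene, from RefSeq on GRCm38.p6. Capitals mark matches to TGATGNAAN on either strand, where N is any base. The windows are chr7:126625471-126625620 for Nupr1, chr1:191183334-191183483 for Atf3, chr6:7693210-7693359 for Asns and chr3:50443614-50443763 for Slc7a11, all on the minus strand.
Nupr1: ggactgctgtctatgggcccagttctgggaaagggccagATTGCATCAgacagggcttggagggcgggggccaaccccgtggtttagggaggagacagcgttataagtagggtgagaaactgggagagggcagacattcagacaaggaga
Atf3: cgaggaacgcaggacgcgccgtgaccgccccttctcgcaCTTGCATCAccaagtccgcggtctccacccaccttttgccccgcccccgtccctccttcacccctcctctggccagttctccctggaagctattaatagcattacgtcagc
Asns: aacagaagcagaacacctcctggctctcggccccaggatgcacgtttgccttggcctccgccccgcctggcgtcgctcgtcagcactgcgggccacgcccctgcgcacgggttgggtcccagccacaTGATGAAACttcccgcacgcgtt
Slc7a11: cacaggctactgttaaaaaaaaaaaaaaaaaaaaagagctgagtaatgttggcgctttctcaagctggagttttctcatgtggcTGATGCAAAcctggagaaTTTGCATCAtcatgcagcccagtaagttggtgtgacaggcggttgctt
The match began 111 bases before the start in both Nupr1 and Atf3, 23 bases before it in Asns, and 66 and 48 bases before it in Slc7a11. In windows of 250 bases before to 50 after the start, which 10821 of the 13817 tested genes had, 2.93% of all genes held a match, 3.75% of those that rose and 1.46% of those that fell. Of 28 ATF4 targets with a window 10 (35.7%) held one. Of these 10, Chac1 and Fgf21 were among the targets that did not pass. The exact form TGATGCAAT stood in 4 of the 28, among them Nupr1, and in 0.194% of all genes. A match is a description of letters and shows no binding.

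The unfolded protein response shares ATF4 but also induces chaperones of the endoplasmic reticulum, and those genes seldom passed the test in the direction of the amino acid genes. Of them 1 of 19 tested members was called higher and 2 lower (median -0.54), with 0 higher and 10 lower after scaling. The chaperone count lower was 1 without MCD3, MCS2 or MCS3, 4 without MCD2 and 5 without MCD1. Hspa5, the chaperone BiP, had 158, 187 and 84.5 FPKM in MCD livers, against 97.4, 208 and 211 in MCS livers (log2 fold change -0.26, 95% interval -1.07 to 0.55). Xbp1, the factor that drives secretory capacity, had 58.4, 59.3 and 35.8 FPKM in MCD livers, against 55.2, 82.8 and 83.3 in MCS livers (limma adjusted p = 0.156). Sdf2l1, a chaperone cofactor, fell to 18.2, 22.8 and 14.7 FPKM in MCD livers, against 26.0, 38.2 and 36.2 in MCS livers (log2 fold change -0.85, standard error 0.24, limma adjusted p = 0.0302). The other member that fell was Derl3, given above with the plasma cell markers. The member that rose, Sec61b, is a subunit of the translocation channel, and it was not called after scaling.

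NRF2 induces enzymes that detoxify electrophiles and make NADPH and glutathione. Of its targets 9 of 28 tested members were called higher and 0 lower (median 0.49), with 8 higher and 0 lower after scaling. Gsta1, a glutathione transferase, had 15.8, 19.8 and 13.7 FPKM in MCD livers, against 2.05, 0.134 and 0.909 in MCS livers (log2 fold change 4.36, standard error 0.63, limma adjusted p = 0.00259). Hmox1, haem oxygenase, had 31.5, 127 and 60.8 FPKM in MCD livers, against 13.7, 8.41 and 9.24 in MCS livers (log2 fold change 2.60, standard error 0.43, limma adjusted p = 0.00402). The quinone reductase Nqo1 rose to 11.5, 21.6 and 11.9 FPKM in MCD livers, against 4.46, 3.83 and 5.34 in MCS livers (log2 fold change 1.65, standard error 0.28, limma adjusted p = 0.00434). The efflux pump Abcc4 (2.97), the carbonyl reductase Cbr3 (2.97) and G6pdx (1.61), the entry enzyme of the pentose phosphate pathway, rose and held after scaling. The subunits of glutamate-cysteine ligase, which start glutathione synthesis, overlapped between the groups. Gclc had 67.3, 78.9 and 46.2 FPKM in MCD livers, against 43.5, 53.01 and 69.6 in MCS livers and Gclm had 29.2, 43.1 and 22.4 FPKM in MCD livers, against 27.9, 28.0 and 40.2 in MCS livers. The core antioxidant element TGACNNNGC, searched on both strands, stood in 8 of 23 targets with a window (34.8%), against 16.8% of all genes.

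The mice were male, and the genes that male mouse liver expresses more than female liver, which pulsed growth hormone maintains through STAT5b, had the lowest median of the groups examined. Of male-biased genes 0 of 22 tested members were called higher and 14 lower (median -1.999), with 0 higher and 14 lower after scaling. The male-biased count was 7 without MCS1 and 9 without MCS2. Mup3, a major urinary protein that carries pheromones, had 239, 99.3 and 147 FPKM in MCD livers, against 1219, 1137 and 1354 in MCS livers (log2 fold change -3.02, standard error 0.30, limma adjusted p = 0.000645), the largest fall in mean FPKM of any called gene. It lies on chromosome 4 of GRCm38 from 62083476 to 62087342. Mup7 had 1.60, 0.0580 and 4.50 FPKM in MCD livers, against 86.5, 233 and 41.3 in MCS livers (log2 fold change -6.45, standard error 1.03, limma adjusted p = 0.00365), and Mup11 had 0.386, 0.0760 and 3.63 FPKM in MCD livers, against 69.5, 76.6 and 21.3 in MCS livers (log2 fold change -6.15, standard error 0.91, limma adjusted p = 0.00271). Mup20, the pheromone darcin, went the other way without passing, at 1086, 765 and 902 FPKM in MCD livers, against 743, 747 and 297 in MCS livers (limma adjusted p = 0.159). The Mup genes are nearly identical copies, so reads may be split among them. Taken as 1 family their share of the summed FPKM was 0.335%, 0.225% and 0.261% in the MCD livers, against 0.623%, 0.814% and 0.490% in the MCS livers (p = 0.1 in the same exact permutation test). Members outside the family fell too. Elovl3, which elongates very long fatty acids, had 0.925, 0.879 and 3.67 FPKM in MCD livers, against 16.6, 25.8 and 32.3 in MCS livers (log2 fold change -3.95, standard error 0.48, limma adjusted p = 0.00149). Hsd3b5, a steroid reductase, had 1.12, 0 and 0.394 FPKM in MCD livers, against 4.30, 13.5 and 2.42 in MCS livers, and Cyp7b1, an oxysterol hydroxylase, had 6.71, 9.45 and 10.2 FPKM in MCD livers, against 23.3, 24.5 and 24.6 in MCS livers (log2 fold change -1.47, standard error 0.22, limma adjusted p = 0.00264). Selenbp2 and Cyp4a12a, whose MCS values spread widely, were not called. The STAT5 motif TTCNNNGAA was found in 0 of 14 male-biased genes with a promoter window, against 8.49% of all genes.

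Of female-biased genes 4 of 18 tested members were called higher and 1 lower (median 0.04), with 3 higher and 3 lower after scaling. The female-biased count higher was 2 with quantile scaling. Cyp2a4, a testosterone hydroxylase, had 999, 1421 and 388 FPKM in MCD livers, against 4.84, 2.03 and 6.38 in MCS livers (log2 fold change 7.65, standard error 0.49, limma adjusted p = 0.000256), the largest log2 fold change among the genes called without overlap and with a mean of at least 1 FPKM. It lies on chromosome 7 of GRCm38 from 26307169 to 26315088. Its near-identical neighbour Cyp2a5 had 453, 995 and 1234 FPKM in MCD livers, against 685, 577 and 392 in MCS livers and overlapped (limma adjusted p = 0.249), and reads may be divided between them in a way not known here. Cyp3a44 had 48.6, 62.3 and 16.4 FPKM in MCD livers, against 0.270, 0.685 and 0.613 in MCS livers (log2 fold change 5.96, standard error 0.47, limma adjusted p = 0.000256). Sult2a2, a sulfotransferase of steroids and bile acids, had 1.29, 12.6 and 0.720 FPKM in MCD livers, against 0.0714, 0.0864 and 0.0902 in MCS livers (log2 fold change 3.74, standard error 0.81, limma adjusted p = 0.0114), with MCD2 far above the other MCD livers. Other female-biased genes did not follow. Cyp2b9 had 200.3, 88.7 and 259.6 FPKM in MCD livers, against 76.2, 166 and 264 in MCS livers, and the factor Cux2 had 2.05, 3.65 and 4.75 FPKM in MCD livers, against 1.29, 0.0889 and 2.35 in MCS livers, both with overlap. Hao2 fell to 0.170, 0.438 and 0 FPKM in MCD livers, against 0.568, 1.499 and 1.79 in MCS livers. Of genes near the growth hormone receptor 3 of 18 tested members were called higher and 2 lower, with 1 higher and 3 lower after scaling, and the number higher was 1 with quantile scaling. Ghr, the receptor, had 16.8, 15.7 and 15.6 FPKM in MCD livers, against 28.8, 35.6 and 37.4 in MCS livers (log2 fold change -1.07, standard error 0.19, limma adjusted p = 0.00576), and Igfals, the carrier that stabilises circulating IGF-I, had 18.5, 15.6 and 23.6 FPKM in MCD livers, against 40.3, 39.6 and 45.6 in MCS livers (log2 fold change -1.14, standard error 0.21, limma adjusted p = 0.00628). Igfbp3, another carrier, rose to 16.96, 27.5 and 19.1 FPKM in MCD livers, against 3.84, 4.25 and 5.42 in MCS livers (log2 fold change 2.19, standard error 0.25, limma adjusted p = 0.00106). Igf1 had 63.1, 45.4 and 56.9 FPKM in MCD livers, against 46.9, 46.1 and 43.1 in MCS livers and overlapped. The direct STAT5 targets Cish and Socs2 did not pass (limma adjusted p = 0.919 and 0.0674), while Socs3, which cytokines induce, rose on the FPKM scale only (1.17).

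**Figure D4:**
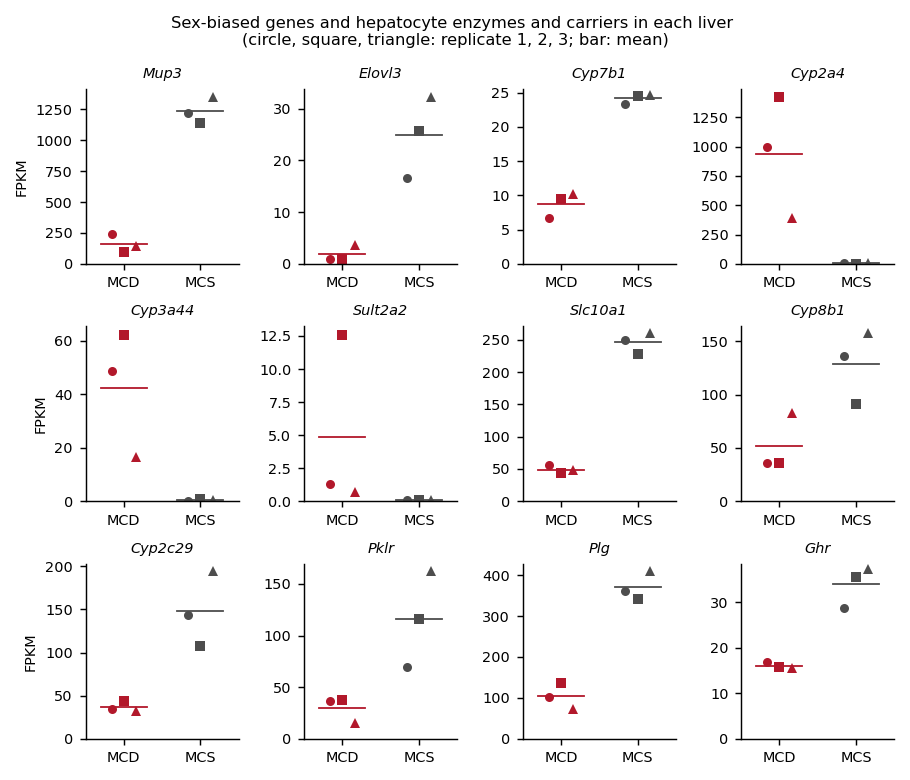
FPKM (vertical axes, linear from 0) of 12 hepatocyte genes in each MCD liver (left) and MCS liver (right), 1 point for each liver, shaped by replicate, and a line at the group mean. Cyp2a4, Cyp3a44 and Sult2a2 lie higher in MCD, and Mup3, Elovl3, Cyp7b1, Slc10a1, Cyp8b1, Cyp2c29, Pklr, Plg and Ghr lie lower, without overlap in any of the 12.

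Of methionine and choline genes 4 of 29 tested members were called higher and 7 lower (median -0.16), with 1 higher and 9 lower after scaling. The number lower was 0 without MCS3, 2 without MCD3 and 3 without MCS1 or MCS2, and the number higher was 1 without MCD3, MCS1 or MCS2, 2 without MCS3 and 0 with quantile scaling. Cbs, which commits homocysteine to cysteine, had 43.6, 31.2 and 23.3 FPKM in MCD livers, against 58.6, 59.6 and 75.8 in MCS livers (log2 fold change -1.02, standard error 0.25, limma adjusted p = 0.0191). Ahcy, which splits S-adenosylhomocysteine, had 399, 295 and 299 FPKM in MCD livers, against 729, 486 and 498 in MCS livers (log2 fold change -0.78, standard error 0.24, limma adjusted p = 0.0450). The sarcosine and dimethylglycine dehydrogenases of choline breakdown, Sardh (-0.89) and Dmgdh (-0.65), fell as well, as did Chpt1 (-0.89), the last step of phosphatidylcholine synthesis. Mat1a, which makes S-adenosylmethionine in hepatocytes, had 1029.9, 1002 and 972 FPKM in MCD livers, against 1407, 1279 and 1175 in MCS livers, without overlap but short of the threshold (limma adjusted p = 0.254). Pemt, which makes phosphatidylcholine by methylation, had 157, 161 and 151 FPKM in MCD livers, against 219, 203 and 175 in MCS livers. It was called only after scaling (scaled log2 fold change -0.76). Bhmt, which remethylates homocysteine with betaine from choline, had 725, 347 and 564 FPKM in MCD livers, against 147, 761 and 496 in MCS livers, with MCS1 lowest of all livers. Slc44a2, a choline transporter-like protein, rose to 1.75, 3.42 and 4.70 FPKM in MCD livers, against 0.695, 0.974 and 0.847 in MCS livers (log2 fold change 1.76, standard error 0.36, limma adjusted p = 0.00933). Mtrr (0.93) and Chkb (1.10) rose on the FPKM scale only.

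Of lipogenesis genes 1 of 25 tested members was called higher and 4 lower (median -0.19), with 0 higher and 7 lower after scaling. The lipogenesis count lower was 1 without MCS3 and 2 without MCD3 or MCS1. Thrsp, a promoter of fatty acid synthesis, had 34.7, 9.71 and 22.8 FPKM in MCD livers, against 49.5, 94.4 and 78.1 in MCS livers (log2 fold change -1.85, standard error 0.42, limma adjusted p = 0.0132), and Me1, malic enzyme, had 26.4, 40.1 and 25.0 FPKM in MCD livers, against 60.7, 52.7 and 75.3 in MCS livers (log2 fold change -1.06, standard error 0.24, limma adjusted p = 0.0135). Scd1, the desaturase that makes oleate, had 44.0, 107 and 9.60 FPKM in MCD livers, against 266, 31.7 and 317 in MCS livers, and MCS2 stood far below the other MCS livers (limma adjusted p = 0.152). Fasn, fatty acid synthase, had 14.7, 9.09 and 9.04 FPKM in MCD livers, against 12.1, 22.4 and 19.8 in MCS livers. It fell only after scaling (scaled log2 fold change -1.13). Of lipid droplet genes 2 of 17 tested members were called higher and 0 lower, with 2 higher and 1 lower after scaling. Cidec, which fuses droplets into larger ones, had 22.6, 99.3 and 41.6 FPKM in MCD livers, against 6.95, 4.79 and 5.47 in MCS livers (log2 fold change 2.98, standard error 0.44, limma adjusted p = 0.00261), and Hilpda, an inhibitor of lipolysis, rose (1.80). Plin2, the droplet coat protein of steatotic hepatocytes, had 188, 475 and 309.8 FPKM in MCD livers, against 254, 201 and 249.9 in MCS livers and overlapped (limma adjusted p = 0.408). Of fatty acid uptake genes 4 of 15 tested members were called higher and 2 lower, with the balance turned to 3 higher and 4 lower after scaling. Lpl, lipoprotein lipase, had 11.98, 52.0 and 25.4 FPKM in MCD livers, against 2.06, 0.983 and 1.07 in MCS livers (log2 fold change 4.17, standard error 0.47, limma adjusted p = 0.00106), and Fabp5 had 7.44, 35.4 and 22.3 FPKM in MCD livers, against 0.920, 0.772 and 0.918 in MCS livers (log2 fold change 4.23, standard error 0.47, limma adjusted p = 0.00103). Both belong to the lipid-associated macrophage list too. Fabp1, the hepatocyte binding protein, had 4199, 2013 and 2754 FPKM in MCD livers, against 6755, 5049 and 4803 in MCS livers (limma adjusted p = 0.0672), and the transporter Cd36 had 37.4, 154 and 60.7 FPKM in MCD livers, against 27.2, 35.1 and 32.4 in MCS livers (limma adjusted p = 0.0700).

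Of fatty acid oxidation genes 2 of 31 tested members were called higher and 2 lower (median -0.28), and 1 higher and 12 lower after scaling. The oxidation count lower was 0 without MCD1, MCS1 or MCS3, 1 without MCD3 and 9 without MCD2. Pdk4, which blocks glucose oxidation when fat is burned, had 22.0, 77.4 and 63.2 FPKM in MCD livers, against 12.8, 4.08 and 10.8 in MCS livers (log2 fold change 2.51, standard error 0.51, limma adjusted p = 0.00878). Cpt1a, the gate for fatty acids into mitochondria, had 59.7, 86.1 and 61.9 FPKM in MCD livers, against 58.3, 62.5 and 66.6 in MCS livers (log2 fold change 0.13, 95% interval -0.33 to 0.59). Hadh, a mitochondrial chain-shortening enzyme, fell (-0.86). The peroxisomal enzyme Ehhadh had 70.3, 408 and 269 FPKM in MCD livers, against 148, 63.6 and 141 in MCS livers, higher only in MCD2 and MCD3 and not called. Of apolipoprotein and VLDL genes 2 of 22 tested members were called higher and 4 lower, with 1 higher and 9 lower after scaling. The VLDL count lower was 1 without MCS1 or MCS3. Mttp, which loads lipid onto nascent VLDL, had 27.4, 37.6 and 28.2 FPKM in MCD livers, against 39.1, 39.6 and 49.2 in MCS livers. It was called lower only after scaling (scaled log2 fold change -0.89). Apob had 188, 235 and 136 FPKM in MCD livers, against 309.7, 231 and 304 in MCS livers (limma adjusted p = 0.0971). Apoa4, a lipoprotein of the fasted and steatotic liver, rose to 68.4, 225 and 45.2 FPKM in MCD livers, against 10.8, 10.97 and 9.09 in MCS livers (log2 fold change 3.10, standard error 0.47, limma adjusted p = 0.00302). Angptl8, an insulin-induced inhibitor of lipoprotein lipase, fell to 264, 92.1 and 188 FPKM in MCD livers, against 403, 477 and 577 in MCS livers (log2 fold change -1.53, standard error 0.35, limma adjusted p = 0.0138).

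No cholesterol synthesis gene rose. Of these genes 0 of 25 tested members were called higher and 8 lower (median -0.63), with 0 higher and 15 lower after scaling. The cholesterol count was 2 without MCS3, 3 without MCD3 or MCS1, 4 without MCD2 or MCS2 and 14 without MCD1. Idi1, which isomerises the isoprenoid unit, had 0.770, 1.33 and 0.653 FPKM in MCD livers, against 3.82, 4.24 and 8.73 in MCS livers (log2 fold change -2.44, standard error 0.37, limma adjusted p = 0.00306). Msmo1, a sterol demethylase, had 9.38, 6.20 and 7.06 FPKM in MCD livers, against 14.9, 16.2 and 17.3 in MCS livers (log2 fold change -1.10, standard error 0.22, limma adjusted p = 0.00827). Tm7sf2 (-1.30), Nsdhl (-1.02), Cyp51 (-0.82) and Fdft1 (-0.60) also fell. Srebf2, the factor that drives the pathway, had 9.07, 9.18 and 8.78 FPKM in MCD livers, against 9.33, 9.23 and 12.1 in MCS livers. The promoters of Idi1 and Msmo1 are shown as the pair of genes of this pathway with the lowest adjusted p, for the CCAAT box that NF-Y binds beside sterol elements. The 150 bases before the start, from RefSeq on GRCm38.p6, lie at chr13:8885456-8885605 on the plus strand and chr8:64733579-64733728 on the minus strand, with CCAAT or its reverse complement in capitals.
Idi1: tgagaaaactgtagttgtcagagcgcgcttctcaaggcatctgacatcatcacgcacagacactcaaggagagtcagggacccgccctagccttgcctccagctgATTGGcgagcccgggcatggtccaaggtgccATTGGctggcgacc
Msmo1: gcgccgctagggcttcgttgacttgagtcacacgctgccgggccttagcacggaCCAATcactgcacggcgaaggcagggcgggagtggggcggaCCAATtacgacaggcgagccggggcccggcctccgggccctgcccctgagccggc
The matches began 45 and 14 bases before the start in Idi1 and 96 and 55 bases before it in Msmo1. CCAAT on either strand stood in 16 of 17 cholesterol genes with a window (94.1%), against 42.5% of all genes, 38.7% of those that rose and 49.6% of those that fell. The sterol element TCACNCCAC stood in 1 of the 17, Hmgcs1, against 1.45% of all genes.

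Of bile acid synthesis genes 0 of 18 tested members were called higher and 8 lower (median -0.54), with 0 higher and 10 lower after scaling. The bile acid count was 4 without MCS3 and 5 without MCD3 or MCS1. Cyp8b1, which sets the share of cholic acid, had 35.7, 35.8 and 82.7 FPKM in MCD livers, against 137, 90.8 and 158 in MCS livers (log2 fold change -1.40, standard error 0.34, limma adjusted p = 0.0183). Slc27a5, a ligase that activates bile acids for conjugation, had 70.0, 62.8 and 75.9 FPKM in MCD livers, against 189, 148 and 211 in MCS livers (log2 fold change -1.38, standard error 0.21, limma adjusted p = 0.00287), and Baat, the conjugating enzyme, fell as well (-0.93). Cyp7a1, the rate-limiting enzyme of the classical route, had 11.99, 18.9 and 9.39 FPKM in MCD livers, against 22.7, 8.59 and 12.5 in MCS livers (log2 fold change -0.06, 95% interval -0.87 to 0.74), and the bile acid receptor Nr1h4 had 86.6, 60.8 and 93.1 FPKM in MCD livers, against 84.7, 92.1 and 78.9 in MCS livers. Of transporters 1 of 18 tested members was called higher and 3 lower, with 1 higher and 5 lower after scaling. Slc10a1, the bile acid importer of the sinusoidal membrane, had 56.2, 43.3 and 47.8 FPKM in MCD livers, against 250.2, 228 and 260.0 in MCS livers (log2 fold change -2.33, standard error 0.19, limma adjusted p = 0.000278). The organic anion carriers Slco1a1 (-2.41) and Slco1b2 (-1.06) fell. The export pumps Abcb11, at 93.3, 43.6 and 61.6 FPKM in MCD livers, against 71.3, 92.1 and 143 in MCS livers, and Abcc2, at 70.0, 77.0 and 47.8 FPKM in MCD livers, against 38.3, 63.6 and 52.8 in MCS livers, overlapped, while Abcc4, a basolateral efflux pump, rose as given above.

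Of drug-metabolizing enzymes 0 of 44 tested members were called higher and 15 lower (median -0.56), with 0 higher and 23 lower after scaling and 11 to 15 lower when 1 liver was left out. Among those that fell were members of the Cyp2c family. Cyp2c29 had 34.5, 44.1 and 31.8 FPKM in MCD livers, against 143, 108 and 195 in MCS livers (log2 fold change -1.98, standard error 0.25, limma adjusted p = 0.00165), Cyp2c38 had 13.9, 12.7 and 16.9 FPKM in MCD livers, against 42.9, 44.3 and 49.0 in MCS livers (log2 fold change -1.65, standard error 0.20, limma adjusted p = 0.00134), and Cyp2c54 (-3.44), Cyp2c50 (-1.74) and Cyp2c37 (-1.74) fell too. Members of this family are close in sequence and may share reads. Ugt1a1, which conjugates bilirubin, had 1.53, 5.06 and 2.06 FPKM in MCD livers, against 11.9, 9.81 and 15.5 in MCS livers (log2 fold change -2.23, standard error 0.39, limma adjusted p = 0.00523), and the carboxylesterases Ces1c (-1.09) and Ces2a (-1.54) fell. Ugt1a1 and Ugt1a9 share exons, so their values may not be independent. Cyp2e1, which oxidises ethanol and fatty acids, had 2357, 3213 and 3972 FPKM in MCD livers, against 6007, 5761 and 4836 in MCS livers, without overlap but short of the threshold (limma adjusted p = 0.0695). Cyp1a2, at 218, 169 and 204 FPKM in MCD livers, against 251, 237 and 175 in MCS livers, and Cyp3a11, at 291, 471 and 333 FPKM in MCD livers, against 683, 321 and 514 in MCS livers, overlapped. The hepatocyte markers moved in the same direction, as 0 of 22 tested members were called higher and 5 lower (median -0.61), with 0 higher and 9 lower after scaling. The hepatocyte marker count was 1 without MCS3, 2 without MCD3 or MCS2, 3 without MCS1, 10 without MCD1 and 3 with quantile scaling. Their part in the falls of metabolic genes was not tested.

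Of urea cycle and amino acid catabolism genes 0 of 30 tested members were called higher and 7 lower (median -0.26), with 0 higher and 12 lower after scaling. Cps1, the entry step of the urea cycle, had 230.4, 242 and 119 FPKM in MCD livers, against 441, 375 and 514 in MCS livers (log2 fold change -1.23, standard error 0.29, limma adjusted p = 0.0163), and Otc, the next step, had 54.1, 33.4 and 28.2 FPKM in MCD livers, against 72.3, 75.8 and 72.2 in MCS livers (log2 fold change -0.98, standard error 0.25, limma adjusted p = 0.0209). Arg1 had 1112, 776 and 296 FPKM in MCD livers, against 805, 830.2 and 842 in MCS livers, and MCD3 was the lowest liver. Tdo2, which opens the tryptophan ring, fell to 109, 215 and 116 FPKM in MCD livers, against 326, 299 and 438 in MCS livers, and Kynu and Haao of the same pathway fell as well (-0.99 and -1.22). The number of the list called lower was 0 without MCS3, 2 without MCS1, 3 without MCD3 and 4 without MCS2. Of glucose genes 5 of 27 tested members were called higher and 5 lower, with 3 higher and 8 lower after scaling. The glucose count higher was 2 without MCD3 or MCS3, 3 without MCD2 or MCS2 and 2 with quantile scaling, and that lower was 2 without MCD3 or MCS3 and 3 with quantile scaling. Liver-type Pklr, the pyruvate kinase of hepatocytes, had 36.4, 37.3 and 14.9 FPKM in MCD livers, against 69.5, 116 and 162 in MCS livers (log2 fold change -1.998, standard error 0.39, limma adjusted p = 0.00773), whereas Pkm, the isoform of most other cells, had 6.65, 27.9 and 20.6 FPKM in MCD livers, against 2.40, 2.60 and 2.32 in MCS livers (log2 fold change 2.63, standard error 0.44, limma adjusted p = 0.00430). The hexokinases of cells other than hepatocytes, Hk1 (1.55), Hk2 (1.79) and Hk3 (3.55), rose. The gluconeogenic enzyme Pck1, at 1282, 901 and 459.8 FPKM in MCD livers, against 839, 588 and 529 in MCS livers, overlapped. Pygl, which releases glucose from glycogen, fell (-1.29).

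Of clotting and fibrinolysis genes 4 of 29 tested members were called higher and 9 lower, with 4 higher and 13 lower after scaling. The clotting count lower was 4 without MCD3, MCS1, MCS2 or MCS3. Plg, plasminogen, had 102, 137 and 73.6 FPKM in MCD livers, against 361, 341 and 411 in MCS livers (log2 fold change -1.87, standard error 0.25, limma adjusted p = 0.00188). Fga, a fibrinogen chain, had 423, 508 and 261 FPKM in MCD livers, against 1457, 1179.5 and 1483 in MCS livers (log2 fold change -1.84, standard error 0.28, limma adjusted p = 0.00304), and Fgb (-1.20) and Fgg (-1.36), the other chains, fell too. Among those that rose were Plau, the urokinase that activates plasminogen, at 2.06, 9.56 and 5.28 FPKM in MCD livers, against 0.805, 0.514 and 0.678 in MCS livers (log2 fold change 2.67, standard error 0.47, limma adjusted p = 0.00533), and its receptor Plaur (3.28). Of complement genes 5 of 26 tested members were called higher and 7 lower, with 2 higher and 12 lower after scaling. The complement count higher was 2 without MCD2, MCD3 or MCS3, 3 without MCS2 and 2 with quantile scaling, and that lower was 3 without MCD3 or MCS3 and 4 without MCS1. Mbl2, a lectin that starts complement, had 45.2, 30.02 and 39.98 FPKM in MCD livers, against 148, 112 and 195 in MCS livers (log2 fold change -1.96, standard error 0.25, limma adjusted p = 0.00174), and C8b (-1.28) and C4b (-1.09) fell. The receptor C5ar1 of myeloid cells rose to 1.96, 8.27 and 4.60 FPKM in MCD livers, against 0.185, 0.274 and 0.182 in MCS livers (log2 fold change 3.80, standard error 0.46, limma adjusted p = 0.00146). C1qa, a macrophage product, had 49.9, 194 and 139 FPKM in MCD livers, against 65.3, 21.0 and 22.1 in MCS livers, with MCS1 above MCD1. Of acute phase genes 5 of 22 tested members were called higher and 6 lower, with 2 higher and 7 lower after scaling. The acute phase count higher was 3 without MCD2, MCD3 or MCS3 and 2 with quantile scaling, and that lower was 3 without MCS3. Lcn2, an iron-sequestering protein, had 94.6, 189 and 116 FPKM in MCD livers, against 15.8, 14.9 and 9.38 in MCS livers (log2 fold change 3.28, standard error 0.29, limma adjusted p = 0.000441). Saa1, serum amyloid A, had 5.72, 26.5 and 42.9 FPKM in MCD livers, against 51.8, 10.9 and 7.44 in MCS livers, with MCS1 the highest liver of all, and Hp, haptoglobin, had 3785, 3114 and 4417 FPKM in MCD livers, against 3289, 2766 and 2176 in MCS livers, both with overlap. Crp, which is no strong acute phase protein in mice, fell to 48.7, 55.3 and 40.2 FPKM in MCD livers, against 111, 123 and 133 in MCS livers (log2 fold change -1.35, standard error 0.20, limma adjusted p = 0.00261). Serpina3k, a serine protease inhibitor, had 351, 269 and 377 FPKM in MCD livers, against 1155, 1617 and 1224 in MCS livers (log2 fold change -2.001, standard error 0.24, limma adjusted p = 0.00143).

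Of iron and metal genes 3 of 18 tested members were called higher and 2 lower, with 1 higher and 3 lower after scaling. Hamp, the iron hormone hepcidin, had 4233, 3936 and 3168 FPKM in MCD livers, against 3302, 2344 and 1870.4 in MCS livers (limma adjusted p = 0.151), and Id1, which responds to the same bone morphogenetic protein signal, had 61.5, 52.5 and 37.3 FPKM in MCD livers, against 20.8, 14.6 and 17.3 in MCS livers (log2 fold change 1.50, standard error 0.24, limma adjusted p = 0.00365). The metallothionein Mt1 rose on the FPKM scale only (1.32). Of hepatokines and secreted stress factors 4 of 22 tested members were called higher and 3 lower, with the balance turned to 1 higher and 4 lower after scaling. The hepatokine count higher was 2 without MCD2 or MCS3 and 1 with quantile scaling, and that lower was 1 without MCS3. Afp, the fetal plasma protein, had 4.70, 5.01 and 1.97 FPKM in MCD livers, against 0.534, 1.12 and 0.853 in MCS livers (log2 fold change 2.04, standard error 0.40, limma adjusted p = 0.00765), and Enho, which encodes the energy factor adropin, fell to 9.33, 7.41 and 10.6 FPKM in MCD livers, against 24.7, 22.5 and 26.1 in MCS livers (log2 fold change -1.43, standard error 0.21, limma adjusted p = 0.00261). Selenop, the selenium carrier, had 618, 1836 and 411 FPKM in MCD livers, against 1815, 1744 and 2164 in MCS livers, with MCD2 at the MCS level and the other MCD livers far below it (limma adjusted p = 0.0684). Of clock genes 1 of 20 tested members was called higher and 1 lower, with 1 higher and 1 lower after scaling. The repressor Nr1d1 had 24.7, 9.98 and 5.38 FPKM in MCD livers, against 10.3, 25.9 and 34.1 in MCS livers and Dbp, an output factor, had 43.8, 28.5 and 13.3 FPKM in MCD livers, against 24.9, 35.1 and 21.5 in MCS livers, with overlap in both.

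Among genes used to normalise PCR data 3 of 16 tested members were called higher and 0 lower, with 1 higher and 1 lower after scaling. The share higher (18.75%) was near that over all genes (19.6%). The count higher was 1 without MCD2, MCD3, MCS1, MCS2 or MCS3 and 1 with quantile scaling. Gapdh had 53.1, 41.9 and 30.1 FPKM in MCD livers, against 44.6, 44.9 and 39.3 in MCS livers, B2m had 2401, 1976 and 2274 FPKM in MCD livers, against 2309.7, 2216 and 2029 in MCS livers, and the cytoskeletal Actb rose as given above. Sdha was called lower after scaling only (scaled log2 fold change -1.31). The 13 genes of mitochondrial DNA took 19.5%, 13.4% and 31.3% of the summed FPKM in the MCD livers, against 8.70%, 14.7% and 11.1% in the MCS livers (exact permutation test, two-sided, p = 0.2). Among the MCD livers, though not among the MCS livers, the share ran opposite to the RNA integrity number that the study lists. The part of RNA integrity in this share was not tested. Of the mitochondrial DNA genes 3 of 13 tested members were called higher and 0 lower, with 0 higher and 0 lower after scaling. The mitochondrial count was 0 without MCD3, MCS1 or MCS3, 5 without MCD2 and 1 with quantile scaling, and mt-Nd6 had 3370.3, 2257 and 5110.4 FPKM in MCD livers, against 848, 1619 and 1001 in MCS livers. Lars2, a nuclear gene for the mitochondrial leucyl-tRNA synthetase, had 485, 178 and 748 FPKM in MCD livers, against 149, 94.1 and 179 in MCS livers, and its values were highest in MCD3 and MCD1 as were those of mt-Nd6, with the Lars2 value of MCD2 inside the MCS range. Of erythroid genes, 2 of 6 tested members were called higher and 1 lower, with 1 higher and 1 lower after scaling. Of pancreas markers 0 of 2 were called, and of muscle markers 1 of 4 was called higher and 0 after scaling. Haemoglobin Hba-a1 had 174, 209.6 and 357 FPKM in MCD livers, against 128, 85.9 and 45.8 in MCS livers. Of adipocyte markers 3 of 5 tested members were called higher and 0 lower, on the FPKM scale and after scaling, namely Lpl, Fabp4 and Cidec, while Adipoq, Lep and Retn, which define adipocytes, did not pass the filter.

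The MCD livers differed in how far they had moved from MCS. The root mean square log2 difference over all tested genes was 0.838 to 0.953 between MCD1 and the MCS livers, 1.21 between MCD2 and each of them, and 1.11 to 1.18 for MCD3. With the median difference of each pair of livers removed it was 0.778 to 0.864 for MCD1, 0.948 to 1.07 for MCD2 and 0.964 to 1.115 for MCD3, so that MCD2 no longer stood furthest from each MCS liver. Within the groups it was 0.680 to 0.821 among the MCD livers and 0.475 to 0.608 among the MCS livers. Among 2661 genes that rose without overlap, MCD1 was the MCD liver nearest to MCS for 65.7%, MCD2 for 19.7% and MCD3 for 14.6%. For the 346 genes that fell without overlap the shares were 39.3%, 37.6% and 23.1%. Per list, the median difference from the MCS mean for the lipid-associated macrophage genes was 2.21, 4.29 and 3.89 in MCD1, MCD2 and MCD3, against 0.12, -0.14 and -0.15 in MCS1, MCS2 and MCS3. For neutrophil markers it was 1.97, 2.72 and 3.40 in the MCD livers, and for male-biased genes -1.92, -2.87 and -1.27, against -0.03, 0.46 and -0.57 in the MCS livers. MCD2 was thus furthest from MCS for the macrophage and male-biased lists and MCD3 for the neutrophil markers. The depth of MCD1 was the lowest of the 6 libraries, and its part in these differences was not tested. The RNA integrity number that the study lists was lowest for MCD3, and its part was not tested either.

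**Figure D5:**
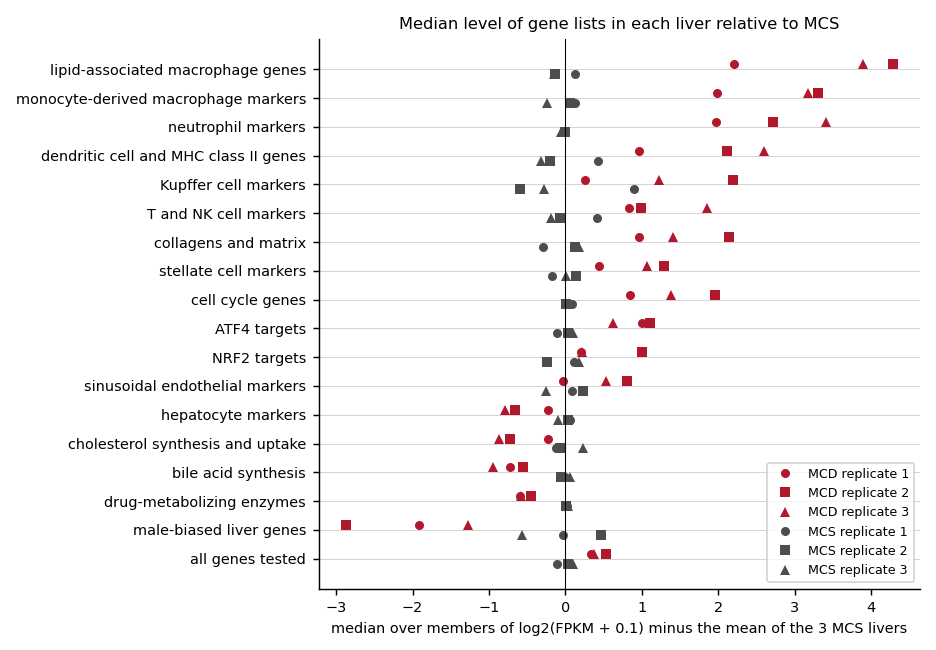
Median log2 difference of each gene group from the mean of the MCS livers (horizontal axis, log2(FPKM + 0.1)) in every MCD and MCS liver, 1 point for each liver. For lipid-associated macrophage genes all MCD livers stand apart from the MCS livers, whereas for Kupffer cell markers MCS1 lies above MCD1.

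Among the called genes with the widest range over the MCD livers were Wfdc3, a whey acidic protein-type inhibitor, at 1.07, 12.97 and 0.301 FPKM in MCD livers, against 0.105, 0.0759 and 0.106 in MCS livers, and Sult2a2, given above, both highest in MCD2. Cxcl5, a neutrophil attractant, had 0.0934, 2.35 and 0.696 FPKM in MCD livers, against 0, 0.0344 and 0 in MCS livers, and Cldn4, a tight junction protein of duct cells, had 0.144, 2.37 and 0.714 FPKM in MCD livers, against 0.0874, 0.0352 and 0.0368 in MCS livers, in the same order of livers. Mup22 had 35.2, 1.46 and 27.7 FPKM in MCD livers, against 218, 641 and 42.2 in MCS livers, lowest in MCD2. No gene was at 0 in all MCS livers and at 1 FPKM or more in all MCD livers. Vsig8, a membrane protein of the immunoglobulin family, came close with 0.880, 7.77 and 7.51 FPKM in MCD livers, against 0 in all 3 MCS livers. Cib3, which encodes a calcium- and integrin-binding protein, had 11.8, 47.4 and 24.7 FPKM in MCD livers, against 0.177, 0 and 0 in MCS livers (log2 fold change 7.43, standard error 0.53, limma adjusted p = 0.000256). Among myeloid receptors that rose without overlap, Clec4d had 5.39, 17.2 and 15.2 FPKM in MCD livers, against 0.232, 0.240 and 0.460 in MCS livers, Lilr4b had 13.6, 37.8 and 40.7 FPKM in MCD livers, against 1.55, 0.941 and 0.590 in MCS livers and Cd300lb had 2.71, 9.69 and 7.48 FPKM in MCD livers, against 0.254, 0.110 and 0.0916 in MCS livers. Among genes with the largest falls in mean FPKM outside the lists, Car3, a carbonic anhydrase of hepatocytes and fat cells, had 423, 127 and 278 FPKM in MCD livers, against 819.8, 1172 and 986 in MCS livers (log2 fold change -1.99, standard error 0.38, limma adjusted p = 0.00729).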

How the data were processed

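The authors deposited a table of FPKM values for 21936 genes, which were normalised to gene length and depth before deposit. The submitters' processing notes give STAR 2.7.7a, featureCounts 2.0.0 and fastp 0.20.1, and the study's methods name Cutadapt, HTSeq and DESeq. The sources used here do not say which of these made the values, or the build. With GENCODE vM21 (GRCm38) gene lengths, 98.1% of 115777 values of up to 1000 reads were whole reads within 0.02, from which depth was recovered. At 0.1 FPKM, the shallowest library holds 1.15 reads per kb.

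The 13817 genes that reached 0.1 FPKM in 3 or more of 9 libraries were compared on log2(FPKM + 0.1) with limma 3.58.1 under R 4.3.3, using lmFit and eBayes (trend). P-values were adjusted by Benjamini-Hochberg over all 13817, with a threshold of 0.05. Other steps used matplotlib 3.10.9, numpy 2.4.6, pandas 2.3.3 and Python 3.11.15. The code was tested on simulated data. Single values per library were compared with exact permutation tests. Promoter windows came from RefSeq.

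The compared groups and the gene lists were chosen with earlier results of these data known, so lists were described by counts and medians without a test. Key members of each list, up to 6 further members in each direction in order of p, members against the direction of their list, and the genes with the largest fold changes, differences or ranges could be named, and a few of these are not reported here. Alternatives were other pseudocounts, filters, scalings, weights, TPM, a fit over 9 libraries, voom on recovered reads, the replicate number as a block, and each library left out.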

Additional observations from a re-analysis of the deposited data

How the results depend on the processing

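The counts of called genes depended on scaling and on single livers. Of 422 genes named or listed that limma called, none reversed under any of the 19 alternatives. These genes had passed the threshold on the same livers, so this count is not independent evidence of their direction. Of 298 genes named or listed that limma did not call, 50 changed sign and 84 became called with median-of-ratios scaling. Uncalled list members entered these 298 only as key members or because they were called after that scaling. The 84 is therefore raised by the choice of genes and is no rate for uncalled genes. Median-of-ratios scaling gave 1230 higher and 1022 lower, and 1591 higher and 698 lower at the thresholds of the study. Quantile scaling gave 1270 genes, 673 higher and 597 lower, and 1740 at the study's thresholds, 1015 higher and 725 lower. Of the 422 calls 106 were lost with median-of-ratios and 194 with quantile scaling, and 23 to 189 with 1 liver left out (189 without MCS3, 176 without MCD3, 156 without MCS1, 126 without MCS2 and 115 without MCD2). Array weights gave 621 lower. A filter at an FPKM of 1 left 1805 genes, 1575 of them higher, and a pseudocount of 1 left 1102, 918 of them higher, at the study's thresholds. With 1 liver left out, limma called 1248 to 3629 genes, 1130 to 3238 higher and 118 to 423 lower. The low counts came without MCS3 (1248), MCD3 (1354), MCS1 (1557) and MCS2 (1786). At the study's thresholds the ranges were 2663 to 3543, 2389 to 3216 and 203 to 327. Called in every such fit were 1023 genes, 918 higher and 105 lower. The difference in albumin share was -7.18 to -4.24 percentage points and that in mitochondrial share 4.94 to 13.9. The labels give replicate numbers and name no pairing of livers. Deviations from the group means correlated at -0.344, -0.306 and -0.261 between same-numbered livers and at 0.0386 to 0.255 between the others. Such deviations sum to 0 within each group, so these correlations cannot decide whether livers were paired. With the number as a replicate block 1876 genes were called, 1685 higher and 191 lower. In the shallowest MCD liver values near 0.1 FPKM rest on few reads.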
